A study of Mus musculus with 8 samples.

Results

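The genes of the cytosolic ribosomal proteins were followed in macrophages of the mouse mammary gland after fibroblast growth factor receptor 1 (FGFR1) had been switched on in the gland. A gene belonged to the set where a probe set of the array was assigned to 1 symbol and that symbol was Rpl or Rps with a number (and a trailing a or, for Rps, x), or was Rplp0, Rplp1, Rplp2 or Rpsa. This gave 42 of the 18193 genes with such a probe set, 22 of the large and 20 of the small subunit, on 94 probe sets. Each gene was read from the probe set with the highest mean signal over the 8 arrays. A signal above the array's median on at least 2 arrays was required, which 41 of the 42 genes met, and 13083 genes in all. Rps16, with signals of 2.8 to 45.3, was the gene left out, so the small subunit is described by 19 genes. Another 27 ribosomal protein genes, Rplp1 among them, had only probe sets assigned to several symbols and are not in the set.

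The mice were females of the inbred FVB background, 6 weeks old at the start, and all of them, controls included, were injected with the dimerizer, a synthetic compound that brings the inducible receptor molecules together. The transgenic mice carried MMTV-iFGFR1, an inducible FGFR1 under the mouse mammary tumour virus promoter, whose activity lies in the mammary epithelium, and the controls were littermates without the transgene. The 4 groups were control and transgenic after 48 hours, and control and transgenic after 4 weeks, with 2 pools each. Cells stained with Cd11b-PE were sorted from digested glands, cells of 3 mice were pooled per array, and the RNA was amplified in a two-cycle protocol, so p-values describe the spread between pools and not between mice. For transgenic 4 weeks pool 2 the labels conflict: 1 of them, the description, speaks of mice lacking the transgene and the rest of transgenic mice, and the pool was taken as transgenic.

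A ribosome is built from a large and a small subunit, each an assembly of ribosomal RNA and many different proteins made in equal numbers. The small subunit reads the messenger RNA, and the large subunit joins the amino acids. Ribosomal protein messages are among the most abundant of any growing cell, and many begin with a tract of pyrimidines, the 5' terminal oligopyrimidine (TOP) motif, through which growth signals set their translation. Macrophages make large amounts of secreted protein when they are activated. The genes also have many processed pseudogenes, so probes for them often match more than 1 place in the genome.

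The sequences around the annotated starts are shown because many messages of this gene family begin with a TOP tract. They are given for the members on which the results below turn, with Rpl7a and Rpl35 as examples of long runs. Each is the 15 bases before and the 15 bases from the start on, 5′ to 3′ on the gene's strand, from RefSeq promoters of build GRCm38.p6. Capitals mark the longest unbroken run of C and T anywhere in the window, which need not be a TOP tract. In Rplp0, Rps15 and Rpl41 this run lies wholly before the annotated start.
Rpl39: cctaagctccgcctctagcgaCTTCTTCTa
Rps27: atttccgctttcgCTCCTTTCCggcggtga
Rpl14: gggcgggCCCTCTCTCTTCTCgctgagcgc
Rps24: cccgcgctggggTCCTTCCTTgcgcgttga
Rplp0: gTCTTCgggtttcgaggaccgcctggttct
Rps15: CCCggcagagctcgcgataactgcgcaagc
Rpl41: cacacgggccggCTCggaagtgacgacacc
Rps9: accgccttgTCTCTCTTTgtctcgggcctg
Rpl7a: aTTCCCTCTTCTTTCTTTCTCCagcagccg
Rpl35: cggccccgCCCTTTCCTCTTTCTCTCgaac
The windows are Rpl39 chrX:37085208-37085237 (minus), Rps27 chr3:90213634-90213663 (minus), Rpl14 chr9:120571502-120571531 (plus), Rps24 chr14:24490663-24490692 (plus), Rplp0 chr5:115559452-115559481 (plus), Rps15 chr10:80292416-80292445 (plus), Rpl41 chr10:128549154-128549183 (minus), Rps9 chr7:3704026-3704055 (plus), Rpl7a chr2:26910792-26910821 (plus) and Rpl35 chr2:39005117-39005146 (minus). Rps24 has another annotated start, with the window chr14:24490738-24490767 (plus), whose longest run is 4 bases. Of the 42 genes, 37 were matched to 43 promoters. A run of at least 6 pyrimidines lay in 24 of the 43 windows (55.8%) and in 29.2% of the 32851 windows of all genes. Rpl7a has a run of 21 bases, Rpl35 of 18 and Rpl14 of 14, whereas the longest runs of Rps15 and Rpl41 in this window are 3 bases. Over the 300 bases of each promoter (250 before and 50 after the start) and on both strands, the ETS-type letters CCGGAAG were found in 41.9% of the members' promoters and 8.86% of all, and the SP1-type letters GGGCGG in 53.5% and 35.7%. The TATA box letters TATAAA were found in 11.6% of the members' promoters and 13.6% of all. The YY1-type letters AAGATGGCG were in 4.65% and 1.40%. The ends of these motifs can overlap but none contains another, and a match is a description of letters, not of bound factors.

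The sorted cells had the defining messages of macrophages on every array. Csf1r, through which macrophages receive their survival signal, gave signals of 68311 to 93065 and Adgre1 of 9842 to 14627, while Itgam, the gene of Cd11b, gave 46.8, on control 4 weeks pool 2, to 545. The signal of 46.8 lies below that array's median of 122.1. On control 4 weeks pool 2 beta-actin was read 37.0 times more strongly at its 3' end than at its 5' end, a ratio that is high in shortened RNA, against 6.84 to 13.9 times on the other arrays. Each array's mean, after trimming 2% at either end, was 499.3 to 499.8, and precision is limited by there being 2 pools a group.

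Most of the ribosomal protein messages were bright and varied little from array to array. Mean signals of the 41 genes ran from 163 to 81507 with a median of 20399, on a scale where array medians were 96.4 to 126.9. Values were analysed as log2(signal + 30.8), the added constant being the lower quartile of the deposited signals. On this scale the standard deviation (SD) of a member over the 8 arrays had a median of 0.14, against 0.38 for all 13083 genes. Much of this goes with brightness: among genes with a mean above 12 on this scale, the median SD was 0.12 for the 33 members and 0.21 for all 1267 genes. The 8 dimmer members had a median SD of 0.31. Levels of different genes come from different probes and were not compared with each other.

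The steadiest member was Rpsa, a small-subunit protein that also serves as the laminin receptor at the cell surface. Its signals were 30822 and 27541 in the controls and 28141 and 29296 with the transgene at 48 hours, and 27432 and 30897 in the controls and 27219 and 28530.1 with the transgene at 4 weeks. Its highest array was 1.14 times its lowest, and the groups overlapped at both times. Of the 501 genes nearest to Rpsa in level, Rpsa included, 1.20% had a smaller SD. The members named here were picked by their SD, so such shares describe them and test nothing. Rpl7 (SD 0.08) and Rps7 (SD 0.08), one protein of each subunit, came next. The most variable members were Rpl39 (SD 0.95), Rpl37 (0.58), Rpl41 (0.49) and Rps15 (0.47), and for these 90.6% to 96.2% of the genes nearest in level had a smaller SD. Rpl37 gave 1916 and 2176 in the controls and 2575 and 819 with the transgene at 48 hours, and 906 and 1947 against 1412 and 1406 at 4 weeks. Its pools of 1 group thus differed up to 3.15-fold, which is the ratio of its highest to its lowest array.

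Relative to each gene's own mean, the median of the 41 members was highest on control 48 hours pool 1, at 0.15, and lowest on transgenic 48 hours pool 2, at −0.11. The other 6 arrays lay between −0.05 and 0.04. On control 48 hours pool 1, 14 members had their highest value and 0 their lowest, while this array held the highest value of 15.1% and the lowest of 19.3% of all genes. On transgenic 48 hours pool 2, 10 members had their lowest value and 0 their highest, against 9.81% and 9.57% of all genes. Transgenic 4 weeks pool 1 held the lowest value of 11 members and of 8.27% of all genes. Control 4 weeks pool 2, the array with the high actin ratio, held the highest value of 13 members and the lowest of 8, against 18.2% and 13.5% of all genes, and the part of RNA quality in this was not tested.

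**Figure D1:**
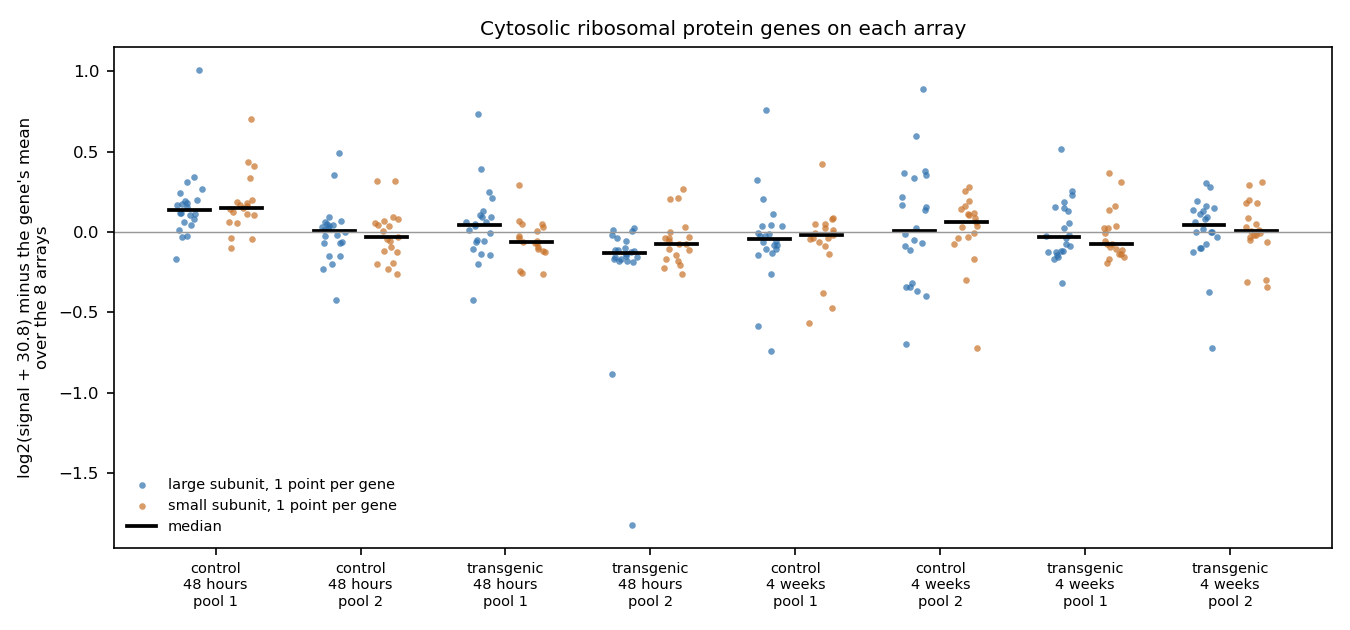
Values of the 41 cytosolic ribosomal protein genes on each of the 8 arrays, as log2(signal + 30.8) minus the gene's mean over the arrays, with 1 point per gene, large-subunit genes in blue, small-subunit genes in orange and a black line at each median. The medians of both subunits are highest on control 48 hours pool 1 (0.14 and 0.15) and lowest on transgenic 48 hours pool 2 (−0.13 and −0.07), except that the small subunit's was −0.08 on transgenic 4 weeks pool 1.

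The large and the small subunit were compared by their medians on each array. The difference of their medians, large minus small, was 0.01 ± 0.03 in control and 0.02 ± 0.11 in transgenic pools at 48 hours, and −0.04 ± 0.03 and 0.04 ± 0.01 at 4 weeks (log2 scale, mean ± SD, n = 2 pools). On single arrays it ran from −0.06, on control 4 weeks pool 2 and transgenic 48 hours pool 2, to 0.10, on transgenic 48 hours pool 1. The 2 transgenic pools at 48 hours therefore had opposite signs.

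The comparison at 48 hours asked how macrophage messages differ soon after the receptor is activated. Ribosomal protein messages were on the whole slightly lower in the transgenic pools. The log2 difference, transgenic minus control, was below 0 for 35 of the 41 members, 17 of 22 of the large and 18 of 19 of the small subunit, while 46.1% of all genes were below 0. Its median was −0.13 over the members, −0.09 over the large and −0.13 over the small subunit, and 0.04 over all genes. None of the differences was called: limma with Benjamini-Hochberg adjustment over the 13083 genes called 0 members and 0 genes (0% of all genes in either direction). At an unadjusted p under 0.05 there were 1 member lower and 0 higher, beside 2% of all genes lower and 2.06% higher. In 17 members both transgenic pools lay below both control pools and in 1 both lay above, against 16.1% and 18.9% of all genes. In a pool of sorted cells, fewer cells of a type and less RNA per cell cannot be told apart.

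The size of this shift depended on scaling and on single pools. After quantile normalization 22 of the 41 members were below 0 with a median of −0.022, and after scaling arrays to 1 median 38 were, with a median of −0.17. Without transgenic 48 hours pool 2 the count was 24 and the median −0.06, without control 48 hours pool 1 they were 25 and −0.06, and without control 48 hours pool 2 they were 38 and −0.21. Without transgenic 48 hours pool 2 the large subunit alone had 13 of its 22 members above 0 and a median of 0.01, and the small subunit 4 of 19 and −0.14. Between pools of the same number the median difference was −0.17 for pool 1 and −0.08 for pool 2. Several lists of markers of other cells moved with the comparison. The summed signal of 10 luminal epithelial markers was 4040 to 4263 in the 48 hours controls and 11890 to 12448 in the transgenic pools of that time, and that of 6 milk protein genes 1253 to 2152 and 7814 to 8205. The sum of 9 neutrophil markers was 10869 to 13086 in those controls and 5471 to 6374 with the transgene, and that of 11 macrophage markers 262095 to 306306 and 254786 to 283950.0. For 6 dendritic cell markers the sum was 1814 to 2148 in those controls and 1160 to 1610 with the transgene. That of 7 fibroblast markers was 37782 to 84901 and 71577 to 74681, so these groups overlapped. The part of these markers in the ribosomal protein values was not tested.

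Rpl39, a very small protein near the exit tunnel of the large subunit, had the widest difference. Its signals were 579 and 357 in the controls and 195 and 54.8 with the transgene at 48 hours, and 318 and 529.6 against 402 and 153 at 4 weeks. Both transgenic pools lay below both control pools at 48 hours, and the groups overlapped at 4 weeks. The log2 difference at 48 hours was −1.81 (SE 0.56, limma with Benjamini-Hochberg adjusted p = 0.977), and −0.65 (SE 0.56, limma with Benjamini-Hochberg adjusted p = 0.986) at 4 weeks. The 48 hours difference was −1.11 without transgenic 48 hours pool 2. Another probe set, assigned to Gm32211 as well as to Rpl39, gave 77455 and 65998 in the controls against 59453 and 63640.5 with the transgene at 48 hours, and 64158 and 69689.5 against 50159.9 and 73253 at 4 weeks. Its log2 differences were −0.22 and −0.14, so the wide difference was seen in the probe set assigned to Rpl39 alone, whose lowest signal of 54.8 lies below that array's median of 105.8.

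Among the other members whose pools did not overlap, Rps27, a zinc finger protein of the small subunit, was also read at a low level. It gave 220.0 and 204 in the controls and 129 and 196 with the transgene, a log2 difference of −0.35 (SE 0.43, limma with Benjamini-Hochberg adjusted p = 0.979). Without transgenic 48 hours pool 1 the difference was −0.10. Rpl14, whose start holds 14 pyrimidines in a row, gave 766 and 728 in the controls and 611 and 616 with the transgene. The transgenic pools of Rpl14 lay close together, and the log2 difference was −0.27 (SE 0.27, limma with Benjamini-Hochberg adjusted p = 0.977). Rpl22, a large-subunit protein with a role in lymphocyte development, gave 34148 and 33659.6 in the controls and 30259 and 27787 with the transgene, a log2 difference of −0.23 (SE 0.16, limma with Benjamini-Hochberg adjusted p = 0.977). Its probe sets disagreed, with log2 differences from −0.77 to 0.07.

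Rps24, a small-subunit protein mutated in some families with Diamond-Blackfan anaemia, was the only member with both transgenic pools above both control pools at 48 hours. Its signals were 15000.0 and 14145 in the controls and 16002 and 17841 with the transgene, a log2 difference of 0.21 (SE 0.18, limma with Benjamini-Hochberg adjusted p = 0.977). It was 0.14 without transgenic 48 hours pool 2. The differences not called can be bounded. The 95% interval of the fit lay within a 2-fold change either way for 36 of the 41 members and for 39.9% of all genes, and within 1.5-fold for 27 members. The 5 members with wider intervals were Rpl39, Rpl37, Rps27, Rps15 and Rpl41.

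**Figure D2:**
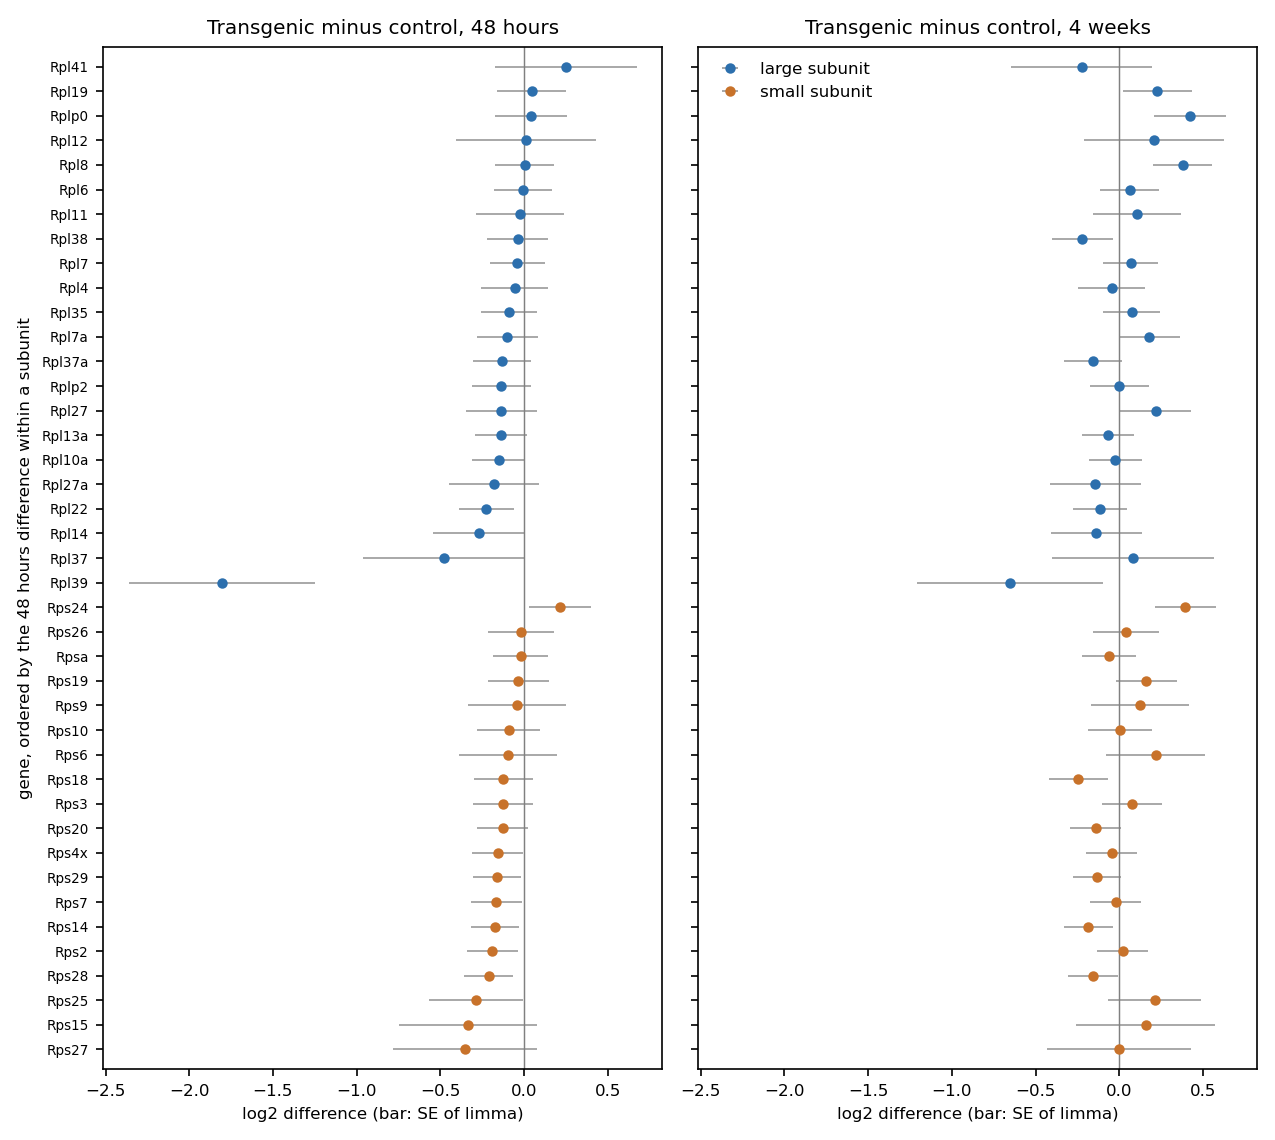
Log2 difference, transgenic minus control, of the 41 genes at 48 hours (left) and 4 weeks (right) on 1 shared axis, with bars for the standard error of limma, large-subunit genes in blue and small-subunit genes in orange. At 48 hours 35 genes lie left of 0, and Rpl39 stands apart at −1.81, while at 4 weeks 22 genes lie right of 0.

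The comparison at 4 weeks asked the same after longer activation. The ribosomal protein messages were spread about 0. The log2 difference was above 0 for 22 of the 41 members, 12 of 22 of the large and 10 of 19 of the small subunit, and for 48% of all genes. The median was 0.00 over the members, 0.03 over the large and 0.00 over the small subunit, and −0.02 over all genes. Limma called 0 members and 0 genes (0% of all genes in either direction), and at an unadjusted p under 0.05 there were 0 members, beside 1.95% of all genes higher and 3.1% lower. Both transgenic pools lay above both control pools for 5 members and below them for 4, against 14.7% and 17.2% of all genes, so neither count exceeds the share among all genes. The marker sums at 4 weeks were 9098 to 13732 in the controls against 6597 to 11359 with the transgene for luminal epithelium, 6017 to 18282 against 2995 to 4035 for neutrophils and 264764 to 323166 against 267978 to 277547 for macrophages. The groups did not overlap for these neutrophil markers. Nor did they for 5 markers of cycling cells, at 6467 to 7637 against 10243 to 10472, and for 6 of T and NK cells, at 595 to 713 against 1160.1 to 1552. For 5 endothelial markers the sums were 1225 to 1342.5 in the controls against 976.3 to 1223.3 with the transgene. The part of these markers was not tested either. No listed marker was at 0, and Camp of neutrophils, Trp63 of myoepithelium and Ncr1 of T and NK cells stayed below the median of every array.

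Rplp0, the scaffold of the ribosomal stalk that recruits translation factors, had the highest difference. It gave 22882 and 18077 in the controls and 27181 and 27304 with the transgene at 4 weeks, and 27391 and 20786 against 28373 and 21212 at 48 hours. The log2 difference was 0.42 (SE 0.21, limma with Benjamini-Hochberg adjusted p = 0.98) at 4 weeks and 0.04 at 48 hours. The groups overlapped at 48 hours, and the control pool farthest below the transgenic ones at 4 weeks was the pool with the high actin ratio. Without it the difference was 0.25. Rplp2, a partner of Rplp0 in the same stalk, gave 30885 and 33151 in the controls and 29372 and 34885 with the transgene, and its groups overlapped. The difference between Rplp0 and Rplp2 was not tested.

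Rps24 was again higher in both transgenic pools, at 14028 and 12514 in the controls and 15813 and 19178 with the transgene, with a log2 difference of 0.39 (SE 0.18, limma with Benjamini-Hochberg adjusted p = 0.966). Without transgenic 4 weeks pool 2 it was 0.25. Its 6 probe sets gave differences from −0.17 to 1.01 at 4 weeks and from −0.13 to 0.22 at 48 hours, so the direction depends on the probe set. Rpl8, a large-subunit protein close to the site of peptide bond formation, gave 15977 and 13865 in the controls and 19657 and 19046 with the transgene, a log2 difference of 0.38 (SE 0.18, limma with Benjamini-Hochberg adjusted p = 0.967). Rpl7a, another large-subunit protein, had a difference of 0.18 (SE 0.18), and Rps19, the gene most often mutated in Diamond-Blackfan anaemia, one of 0.16 (SE 0.18). Rpl8, Rpl7a and Rps19 each have 1 probe set of their own on the array, and their pools did not overlap.

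The 4 members with both transgenic pools below both control pools were all of the small subunit. They were 4 of its 19 genes, beside 17.2% of all genes, and the subunit medians were 0.03 for the large and 0.00 for the small. A difference between the subunits was not tested. Rps18, at the head of the small subunit, gave 55772 and 66229 in the controls and 48546 and 54191 with the transgene, a log2 difference of −0.24 (SE 0.18, limma with Benjamini-Hochberg adjusted p = 0.986). Its 3 probe sets past the filter gave differences from −0.24 to 0.02, so its direction depends on the probe set. Rps14 had a difference of −0.19 (SE 0.15), Rps28 of −0.15 (SE 0.15) and Rps29 of −0.13 (SE 0.14). Without control 4 weeks pool 2 Rps18 was at −0.12, Rps28 at −0.069 and Rps29 at −0.087. Without transgenic 4 weeks pool 1 Rps28 was at −0.094 and Rps29 at −0.058, and after quantile normalization Rps29 was at 0.16. Their mean signals over the 8 arrays were 55722 to 81507, and each difference was under 2 of its standard errors. At 4 weeks the 95% interval lay within 2-fold for 36 of the 41 members and 39.8% of all genes.

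A further 5 members were described whatever their values. At 4 weeks the groups overlapped for all 5, and at 48 hours both transgenic pools lay below both control pools for Rps3 and Rpl13a. Rpl11, which binds Mdm2 and so restrains the breakdown of p53, gave 8972 and 7484 in the controls and 8491 and 7632 with the transgene at 48 hours, and 10388 and 6404 against 7509 and 10252 at 4 weeks. Rps6, the substrate of the S6 kinases, gave 1834 and 1259.9 against 1207 and 1669 at 48 hours, and 1105 and 1565 against 1439 and 1639 at 4 weeks. The differences of Rps6 were −0.10 (SE 0.29) and 0.22 (SE 0.29), and those of Rpl11 −0.03 and 0.10, with an SE of 0.26. Rps3, also a DNA repair enzyme, had −0.13 and 0.08. The 3 probe sets of Rps3 ran from −0.13 to 0.74 at 48 hours and from −0.72 to 0.08 at 4 weeks. Those of Rpl13a, 4 in number, ran from −0.14 to 0.03 and from −0.07 to 0.20, so both signs depend on the probe set. Rpl13a, part of a complex that silences inflammatory messages in macrophages, had −0.14 and −0.07 (SE 0.15), and Rpl4, which lines the exit tunnel, −0.06 and −0.04.

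**Figure D3:**
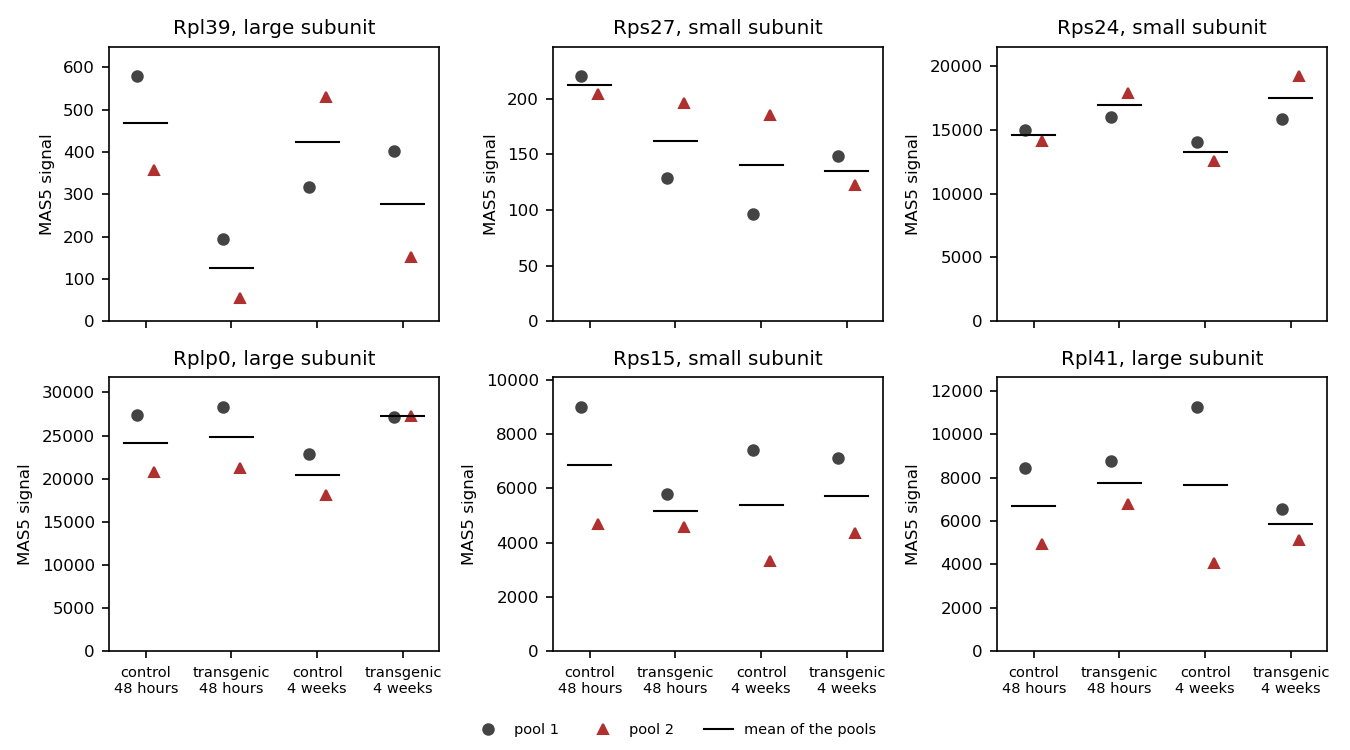
MAS5 signal of Rpl39, Rps27, Rps24, Rplp0, Rps15 and Rpl41 in each group, with circles for pool 1, triangles for pool 2 and a line at the mean of the 2 pools, each gene on its own linear axis from 0. Rpl39 is lowest on transgenic 48 hours pool 2 (54.8), and for Rps15 and Rpl41 the triangle lies below the circle in all 4 groups.

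The genotype difference at 4 weeks was above that at 48 hours for 34 of the 41 members, and for 45.7% of all genes. The median of this difference of differences was 0.13 over the members, 0.13 over the large and 0.14 over the small subunit, and −0.06 over all genes. Limma called 0 members and 0 genes (0%). At an unadjusted p under 0.05 there were 0 members, beside 2.16% of all genes above and 2.58% below 0, so no member was shown to differ between the times. The median was 0.06 without transgenic 48 hours pool 2, with 12 of the 41 below 0, 0.07 without control 48 hours pool 1, with 14 below 0, and 0.20 without control 48 hours pool 2, with 3 below 0. Rpl39 had the largest value, 1.16 (SE 0.78, limma with Benjamini-Hochberg adjusted p = 0.989), with 0.46 without transgenic 48 hours pool 2 and 0.54 without transgenic 4 weeks pool 1. It was 1.85 without transgenic 48 hours pool 1, the highest with 1 pool left out. Rpl41 had the lowest, −0.47 (SE 0.60, limma with Benjamini-Hochberg adjusted p = 0.991). Rps25, a small-subunit protein used by some viral internal ribosome entry sites, had 0.50 (SE 0.40), with 0.12 without control 4 weeks pool 1, 0.88 without control 4 weeks pool 2 and 0.32 without control 48 hours pool 2. Rpl37 had 0.56 (SE 0.69) and Rps15 0.49 (SE 0.59), while Rpl38, Rps18 and Rpsa stood at −0.18, −0.12 and −0.04. The signs of Rpl37, Rps15, Rpl41, Rpl38, Rps18 and Rpsa each turned when 1 pool was left out.

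Age and time on dimerizer differ between 48 hours and 4 weeks within each genotype. In control pools 30 of 41 members were lower at 4 weeks, with a median log2 difference of −0.04 (all genes 0.05, with 45% below 0). In transgenic pools 29 of 41 were higher, with a median of 0.07 (all genes −0.01, with 48.4% above 0). Limma called 0 members in either genotype, and of all genes 1 lower in control (0.00764%) and 0 in transgenic pools (0%). At an unadjusted p under 0.05 there were 0 members in either, beside 3.36% of all genes higher and 2.8% lower in control, and 1.15% and 1.05% in transgenic pools. Without control 48 hours pool 1 the control median was 0.03 with 15 of 41 below 0, without control 48 hours pool 2 it was −0.14, and without transgenic 4 weeks pool 2 the transgenic median was −0.00 with 21 below 0. These comparisons share the 48 hours and 4 weeks pools with the genotype comparisons and are not independent of them. Rps19 was higher at 4 weeks in both genotypes with pools that did not overlap, at 0.08 (SE 0.18) in control and 0.28 (SE 0.18) in transgenic pools, from 8558 and 8873 to 9484 and 8979 and from 9223 and 7839.7 to 10272 and 10392. It was the 1 member with control pools that did not overlap upward (18% of all genes), and 6 members did so downward (13.7%), while in transgenic pools 6 did so upward (14.1%) and 1 downward (14.5%). In control pools the lowest of these were Rps27 at −0.55 (SE 0.43), Rpl8 at −0.30 (SE 0.18), Rpl10a at −0.16 and Rps24 at −0.14. Without control 4 weeks pool 1 Rps27 was at −0.17 and Rps19 at 0.043, without control 4 weeks pool 2 Rpl8 was at −0.19 and Rps24 at −0.054, and without control 48 hours pool 1 Rpl8 was at −0.17 and Rpl10a at −0.11. In transgenic pools the highest were Rpl12, at the base of the stalk, with 0.32 (SE 0.42), Rps19, Rps25 with 0.26 and Rpl14 with 0.18, and the lowest was Rpl41 with −0.40 (SE 0.42). Rpl41 was at −0.22 without transgenic 48 hours pool 1 and at −0.23 without transgenic 4 weeks pool 2, Rps25 at 0.15 without transgenic 48 hours pool 1 and Rps19 at 0.16 without transgenic 48 hours pool 2.

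In pool 2, 6 of the 41 members were lower in all 4 groups and 3 were higher, against 8.74% and 8.53% of all genes. None was called. Rps15, Rpl41 and Rps9, described first, were picked for this order after their values were seen. Rps15, a small-subunit protein near the decoding site, gave 9010.4 and 4686 in pools 1 and 2 of the 48 hours controls and 5776 and 4586 in the transgenic pools. At 4 weeks it gave 7418 and 3337 in the controls and 7112 and 4338 with the transgene. Pool 2 was thus lower in all 4 groups, and the second probe set of Rps15 repeated this order with 4021 and 2316, 2979 and 2198, 2033 and 1339, and 2519.7 and 1968 in the same order of groups. With the group as a covariate, a contrast added after the data had been seen, pool 2 minus pool 1 was −0.78 (SE 0.16, limma with Benjamini-Hochberg adjusted p = 0.228) for Rps15. Without both transgenic 48 hours pools and without both transgenic 4 weeks pools, the lowest adjusted p of any member in this contrast was 0.708 and 0.757, and over the 10 alternatives it ran from 0.180 to 0.757.

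Rpl41, the smallest ribosomal protein, gave 8429 and 4959.5 against 8743 and 6768 at 48 hours, and 11271 and 4084 against 6562 and 5134 at 4 weeks, in control and transgenic pools. Pool 2 was lower in all 4 groups, with a log2 difference of −0.73 (SE 0.19, limma with Benjamini-Hochberg adjusted p = 0.323). Of its 4 probe sets this one alone showed the difference to that size, since the other 3 had −0.11, −0.13 and −0.00. Rps9, which sits at the entry of the messenger RNA channel, gave 10767 and 6640.3 against 9746 and 6902 at 48 hours, and 7501 and 7099 against 9870.5 and 6425 at 4 weeks. Its difference between pools was −0.47 (SE 0.14, limma with Benjamini-Hochberg adjusted p = 0.388), and its other probe sets gave 0.26 and −0.70.

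In all, 6 of the 41 members (Rps15, Rpl41, Rps9, Rpl27, Rpl19 and Rpl8) were lower in pool 2 in all 4 groups, and 3 (Rpl38, Rpl12 and Rps25) were higher, against 8.74% and 8.53% of all genes. Limma called 0 members, and of all genes 2 higher (0.0153%) and 0 lower (0%). At an unadjusted p under 0.05, 5 members were lower and 1 was higher, beside 4.22% and 4.76% of all genes. Over all members the order of the pools was not shared between groups: pool 2 was lower for 35 of 41 in the 48 hours controls, 23 in the 48 hours transgenic, 15 in the 4 weeks controls and 12 in the 4 weeks transgenic pools. The labels do not say what a pool number marks.

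**Figure D4:**
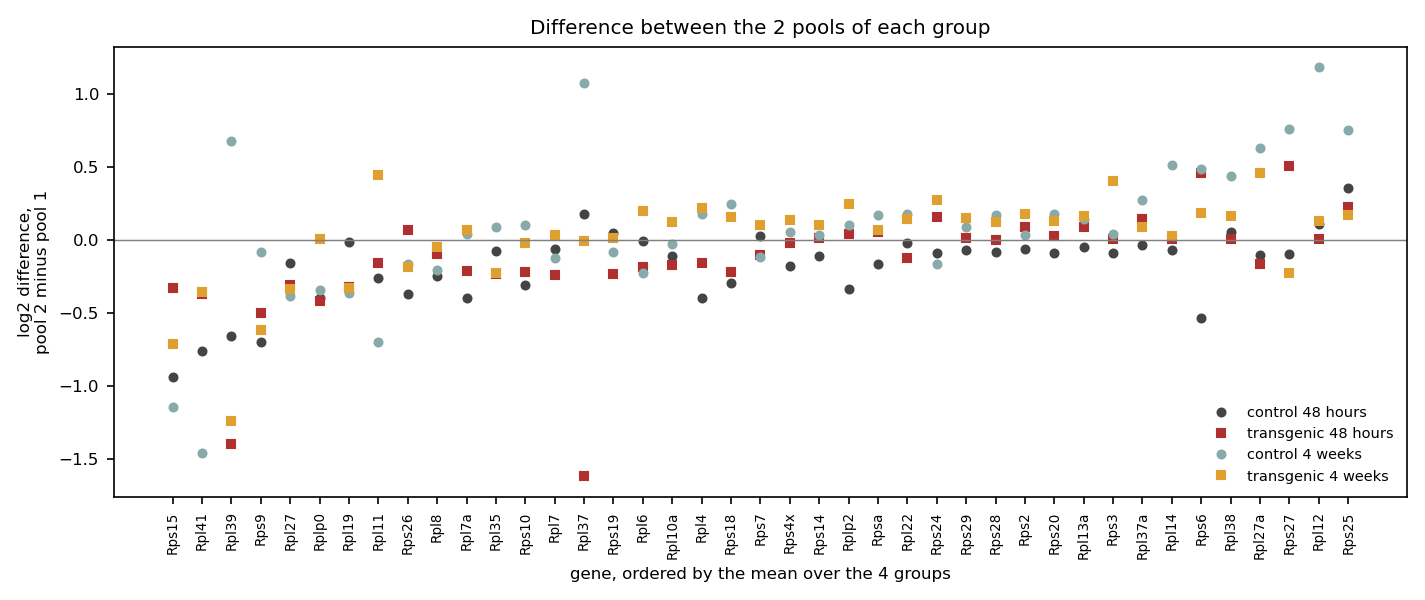
Log2 difference, pool 2 minus pool 1, of the 41 genes in each of the 4 groups (circles for control, squares for transgenic), ordered by the mean over the groups. Rps15, Rpl41 and Rps9 at the left lie below 0 in all 4 groups, and the largest gaps of either sign are those of Rpl37, Rpl41, Rpl39 and Rpl12.

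The other genes of protein synthesis, from lists of their known roles, mostly had differences above 0 at 48 hours, as did 53.9% of all genes. Of the 76 genes of mitochondrial ribosomal proteins, which serve translation inside mitochondria, 65 had a log2 difference above 0, with a median of 0.21, and 31 of the 76 had both transgenic pools above both control pools, against 18.9% of all genes. Of 22 measured initiation factors, which bring the ribosome to the message, 18 were above 0 (median 0.24). Of 38 measured biogenesis factors, which process ribosomal RNA and assemble subunits, 26 were above 0 (median 0.20). Elongation factors and other messages with a TOP motif stood nearer to the ribosomal proteins, with 9 of 21 above 0 and a median of −0.05. For RNA polymerase I and the control of ribosome synthesis 19 of 33 were above 0 (median 0.10), and for paralogues outside the set 4 of 6 (median 0.05). None of these genes was called. Unadjusted p-values under 0.05 were those of 2 mitochondrial genes, 1 initiation and 1 biogenesis factor upward, and of 1 gene of the polymerase list downward, beside 2.06% of all genes higher and 2% lower. These were Mrpl11 at 0.97 (SE 0.33) and Mrpl14 at 0.71 (SE 0.29), both of the large mitochondrial subunit, Eif2b1 at 0.83 (SE 0.32), the RNA helicase Ddx21 at 0.88 (SE 0.29), and Polr1a, the largest subunit of RNA polymerase I, at −1.19 (SE 0.49), each with an adjusted p of 0.977 by limma with Benjamini-Hochberg adjustment. Other scalings and left-out pools were tried on the lists after the data had been seen. Without transgenic 48 hours pool 1 the mitochondrial median was 0.11, with 49 of 76 above 0, and without control 48 hours pool 1 that of the initiation factors was 0.15. Elongation and other TOP messages had 12 of 21 above 0 and a median of 0.03 without transgenic 48 hours pool 2, and without control 48 hours pool 2 the polymerase list had a median of 0.03. After quantile normalization 63 mitochondrial genes, 18 initiation and 27 biogenesis factors were above 0, while elongation and other TOP messages turned to 11 of 21 with a median of 0.00.

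At 4 weeks the mitochondrial set had 47 of 76 below 0 (median −0.11), but the median was 0.03 without transgenic 4 weeks pool 2 and 0.01 without control 4 weeks pool 1. Biogenesis factors had 26 of 38 above 0 (median 0.10), against 48% of all genes, and the median was 0.16 without control 4 weeks pool 1 and 0.20 without control 4 weeks pool 2. At an unadjusted p under 0.05, 5 of the 38 were higher, against 1.95% of all genes. The 4 with the lowest p were Ncl, the nucleolin of the nucleolus, at 0.85 (SE 0.23, limma with Benjamini-Hochberg adjusted p = 0.893), Nop58 at 1.09 (SE 0.32), Bysl at 1.28 (SE 0.39) and Fbl at 0.83 (SE 0.26). Nop58 and Fbl are core proteins of the particles that methylate ribosomal RNA, and Bysl helps to assemble the small subunit. The summed signal of 5 markers of cycling cells was 6467 to 7637 in the 4 weeks controls against 10243 to 10472 with the transgene, and its part in these values was not tested. In control pools Nop58, Ncl and Bysl were lower at 4 weeks than at 48 hours, at −1.23 (SE 0.32), −0.52 (SE 0.23) and −0.72 (SE 0.39). The 4 weeks control pools, 1 of them with the high actin ratio, enter both comparisons. Values of these single genes with a pool left out were not examined. Elongation and other TOP messages had 14 of 21 above 0 (median 0.16), and without transgenic 4 weeks pool 2 the median was 0.03. Initiation factors had 13 of 22 above 0 (median 0.02), and without control 4 weeks pool 2 they had 8 and a median of −0.06. The polymerase list had 13 of 33 above 0 (median −0.09), and its median was 0.06 without transgenic 4 weeks pool 1 and 0.04 without control 4 weeks pool 2. The paralogues had 4 of 6 above 0 (median 0.15), and without control 4 weeks pool 2 the median was 0.02. None of these genes was called.

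**Figure D5:**
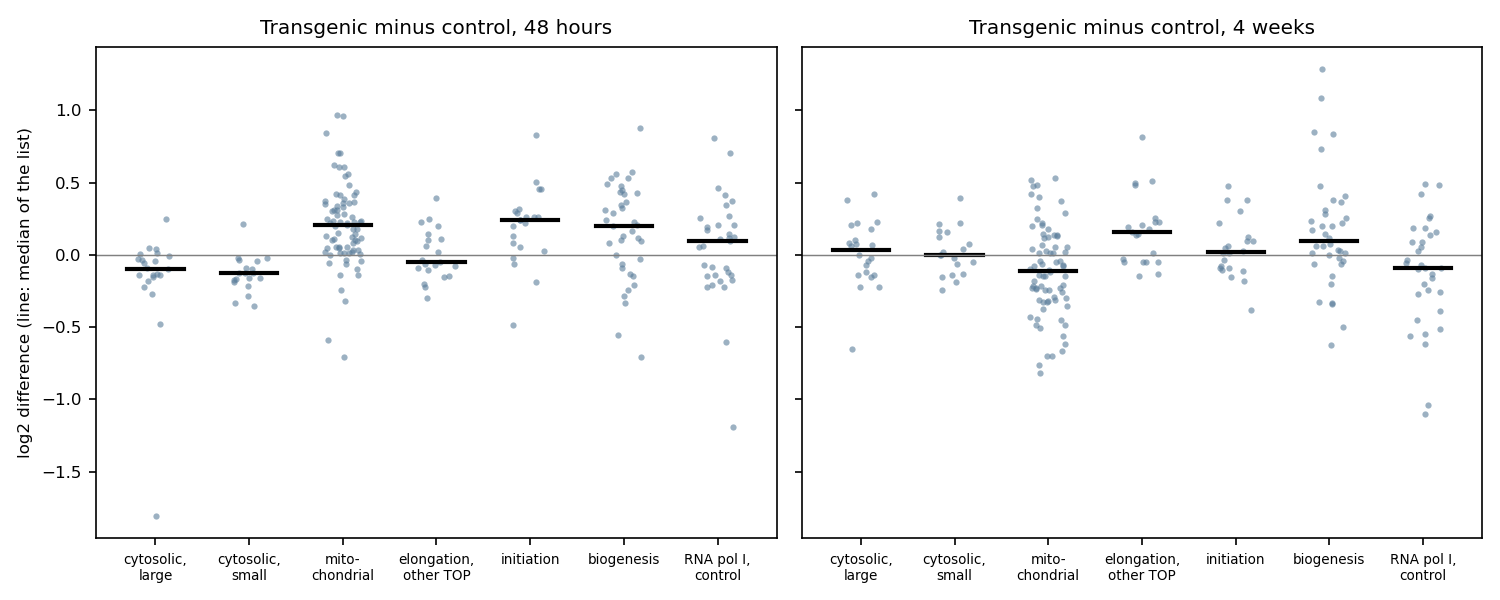
Log2 difference, transgenic minus control, of each measured gene of 7 lists of protein synthesis at 48 hours (left) and 4 weeks (right), with 1 point per gene and a line at the median of the list. At 48 hours the lines of the cytosolic ribosomal proteins lie below 0 (−0.09 and −0.13) and that of the mitochondrial ones above (0.21), and at 4 weeks the latter lies at −0.11.

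At 48 hours the choice of probe set bore on single members more than on the set, while at 4 weeks it bore on the set as well. Of the 41 chosen probe sets, 13 carry an x in their identifier, for probes that match unrelated sequences, 2 an s and 15 an a, for probes shared by several transcripts, and 11 carry no such letter. The median log2 difference at 48 hours was −0.13 for those with x, −0.10 with a, −0.13 with s and −0.14 with none. At 4 weeks it was −0.13 with x, 0.04 with a, 0.00 with s and 0.21 with none. Of the 18 members with several probe sets past the filter, the probe sets of 9 had opposite signs at 48 hours and those of 13 at 4 weeks, so the sign of a single member can depend on its probe set. Rps9 had the widest gap, 1.32 at 48 hours, where its dimmest probe set gave −1.37 and the chosen one −0.04. Over all 86 probe sets of the members past the filter, a count added after the data had been seen, 65 were below 0 at 48 hours (median −0.12) and 45 at 4 weeks (median −0.02).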

How the data were processed

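Signal intensity per probe set on 8 Affymetrix mouse whole-genome arrays was deposited by the authors, with MAS5 named in the submitters' processing notes. Detection calls were not used here. Of 45101 probe sets, 34945 had 1 gene symbol, 932 several and 9160 none, and 64 were controls. Signals were turned into log2(signal + 30.8). Probe sets had to exceed the median of an array on 2 or more of the arrays, and the brightest stood for its gene. limma 3.58.1 in R 4.3.3 fitted a mean per group, with a trend in the prior variance, 2-sided p-values adjusted by Benjamini-Hochberg over 13083 genes, called at 0.05. Plots were made with matplotlib 3.10.9 (Python 3.11.15). The steps were tested on simulated data, with 200 of 13083 genes changed in the 48 hours comparison. Of changes of 2-fold, 4-fold and 8-fold, 6.27%, 44.2% and 70% were recovered. The mean number of false calls over 5 runs was 5.2. Most simulated 2-fold changes thus went uncalled. The changed genes were drawn from all 13083, whose median SE at 48 hours was 0.37, against 0.18 for the members. The recovered shares therefore do not describe the members. Named for each comparison were the 4 highest and 4 lowest members whose pools did not overlap (for the difference between times, any), the 3 members of highest and of lowest SD, a set named whatever its values, up to 4 genes of each list by p, and members by the gap between probe sets. Rps15, Rps9 and Rpl41 were taken for the pool order after their values were seen. The members and gene lists were chosen with earlier results of these data known. Alternatives were quantile and median scaling, other offsets, filters and probe set rules, no trend, weighted arrays, a block for pool number, 2 groups alone, the actin ratio as a covariate, and each pool left out.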

Additional observations from a re-analysis of the deposited data

How the results depend on the processing

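Limma called 0 ribosomal protein genes in each of the 5 comparisons under every setting run, and the lowest adjusted p of any member was 0.530. The median at 48 hours was −0.022 under quantile normalization, and −0.21 to −0.056 with 1 pool left out. The median difference of the genotype differences was 0.21 under median scaling, and 0.059 to 0.20 with 1 pool left out. The time median was −0.12 in control pools with the mean of all kept probe sets, −0.14 to 0.027 with 1 pool left out in control and −0.0027 to 0.13 in transgenic pools, and the 4 weeks median −0.05 to 0.03. From the 20 members with probe sets without an x, s or a, the 4 weeks median was 0.10, its large minus small difference −0.039, the control time median −0.14, and the large minus small difference over time 0.12 in control and 0.24 in transgenic pools; the cause was not tested. Large minus small ran, with 1 pool left out, from 0.0056 to 0.15 at 48 hours, 0.013 to 0.094 at 4 weeks, −0.045 to 0.10 for the difference between times, and −0.10 to 0.00083 and −0.027 to 0.14 over time in control and transgenic pools.

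Single members that changed sign were Rps29 at 4 weeks under quantile normalization (0.16), Rps24 from probe sets without a letter (−0.17 at 4 weeks, 0.14 over time in control pools), and, for the difference between times, Rpsa under median scaling (0.037), Rpl41 with the probe set chosen by mean log2 (0.17) and Rps18 with the mean of probe sets (0.073). With 1 pool left out that difference ran from −0.27 to 0.029 for Rps18, −0.13 to 0.044 for Rpsa, −0.25 to 1.37 for Rpl37, −1.20 to 0.25 for Rpl41, −0.080 to 1.06 for Rps15 and −0.40 to 0.037 for Rpl38. The other 644 values of named members kept their direction. A pool left alone in its group was assumed to vary like the others. The fit of 2 groups alone gives no difference between times.

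The pool numbers were shared by the groups, but the deviations of equally numbered pools correlated at −0.08 to 0.13 in 6 pairs of groups, over 0.1 in 3 of the 6, and as the labels give the numbers no meaning, and not every pair exceeded 0.1, the samples were not treated as paired. With the pool number as a replicate block, 0 members were called, the median at 48 hours was −0.13, and the lowest adjusted p was 0.911 at 48 hours and 0.855 at 4 weeks. The pool contrast, added after seeing the data, called 0 members under each of its 10 alternatives. Detection calls were not used here, so a low signal cannot be told from absence.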

Other observations

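Probe sets assigned to several symbols were set aside in the comparisons. There were 110 such probe sets that include a cytosolic ribosomal protein gene, among them the only probe sets of 27 genes not described above. Of the 110, 104 passed the same filter, and their values were looked at after the data had been seen. At 48 hours 76 of the 104 had a log2 difference below 0, with a median of −0.13, for 72 that name a large-subunit gene −0.14 and for the other 32 −0.13. At 4 weeks 59 of the 104 were below 0, with a median of −0.02. They share arrays with the 41 genes described above, and some may detect the same messages, so the values are not an independent set.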
